A study of Mus musculus with 6 samples.

Results

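The erythropoietin receptor has no kinase activity of its own and signals through Janus kinases, which phosphorylate STAT transcription factors. In erythroblasts, which mature into red cells, JAK2 is the kinase bound to that receptor and STAT5A and STAT5B are its main STAT proteins. STAT5 induces inhibitors of the same pathway, among them CISH, SOCS2 and SOCS3, which bind activated receptors or kinases and so form a feedback loop. The 10 genes described here were fixed by name as the Janus kinase genes Jak1, Jak2, Jak3 and Tyk2, the STAT genes Stat3, Stat5a and Stat5b, and the feedback inhibitor genes Socs2, Socs3 and Cish. All 10 were found among the 17691 genes of both deposited tables, and all 10 passed the filter on low counts, as did 12283 genes in all.

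RNA levels were measured in 6 libraries of C57BL/6J mouse fetal liver erythroblasts, purified as negative for the late erythroid antigen TER119 and grown in medium with erythropoietin. The 3 treated cultures received carbon dots (CDs, nanometre-sized carbon particles derived from the plant Codonopsis pilosula) at 1 ug/ml for 30 h, and the 3 untreated cultures received none. Both groups therefore had erythropoietin present, and no culture without it was compared. Whether the replicates of a group were independent cultures or animals is not stated, so p-values cover the spread among these 6 libraries, some of which may be technical.

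Libraries held 17695997 to 20066581 expected counts, and the libraries numbered 3 stood apart from the others in both groups. The first principal component of log2 CPM (counts scaled by library total) held 88.7% of the variance. Scores on it were -52.0, 14.9 and 95.7 for CDs 1 to 3 and -87.1, -46.2 and 74.6 for untreated 1 to 3. The 16 listed erythroid genes all passed the low-count filter and held 11.8% to 14.0% of the counts in CDs and 12.4% to 13.2% in untreated libraries. Markers of macrophages, the cells around which erythroblasts mature in fetal liver, held 0.0451%, 0.186% and 0.662% of the counts in CDs 1 to 3 and 0.0190%, 0.0565% and 0.490% in untreated 1 to 3. In bulk RNA, fewer cells of a type and less RNA per cell cannot be told apart. No label says that a number pairs a CDs library with an untreated one. In these same data, deviations of same-numbered libraries from their group means correlated at 0.91, 0.34 and 0.94 for numbers 1 to 3. Both libraries numbered 3 lay at the high end of the first component, and libraries of unlike number were not compared in this way. These correlations therefore cannot decide whether a number marks a pair. On them alone, differences are also given by number, as CDs 1 against untreated 1 and so on. A fit with the replicate number as a block rests on the same pairing.

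Cish was the most abundant of the 10 genes per length in both groups, and Jak3 was the gene whose place in the order differed most. In FPKM, which divides counts by gene length and library total, Cish averaged 77.7 ± 14.0 in CDs and 83.8 ± 7.46 in untreated libraries (SD, n = 3 each), above every other member in each library of its group. Jak3 ranked 2 of 10 in CDs libraries and 6 of 10 in untreated ones. Between neighbours below Cish, the ranges over the 3 libraries overlapped throughout the order in both groups. Stat5a was the lowest, at 4.89 ± 0.482 FPKM in CDs and 4.15 ± 0.821 FPKM in untreated libraries, next to Socs2 at 5.49 ± 1.98 and 5.82 ± 1.64 FPKM.

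**Figure D1:**
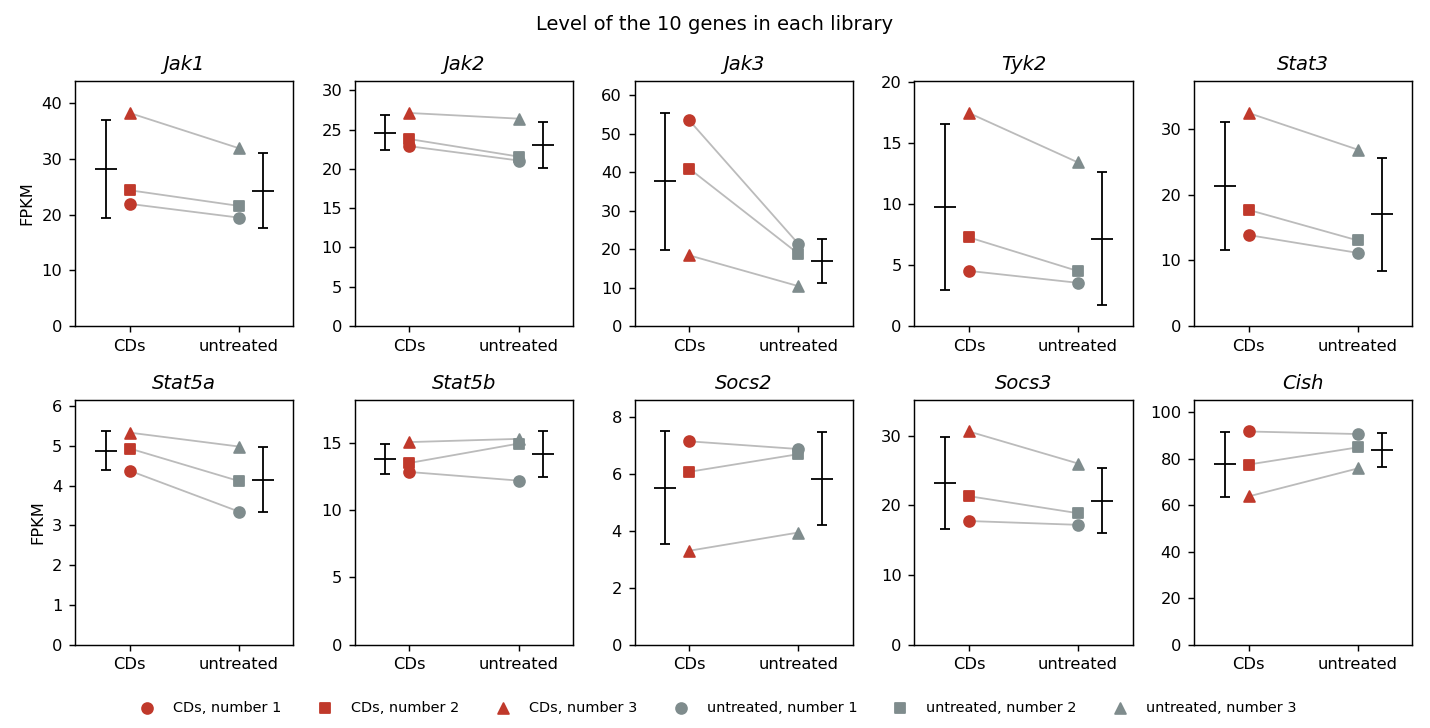
FPKM of each of the 10 genes (vertical axes, from 0) in the CDs libraries (red, left) and the untreated libraries (grey, right), with a marker shape for each replicate number, lines joining same-numbered libraries and black bars for the group mean ± SD (n = 3). Jak3 is higher in the CDs library of each pair, as are Jak1, Jak2, Tyk2, Stat3, Stat5a and Socs3. The group means of Jak3 differ by more than its untreated range and by less than its CDs range. For each of the other genes the group means differ by less than the range within either group.

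Without the block, edgeR's quasi-likelihood test of CDs against untreated libraries called 0 of the 10 genes at an adjusted p under 0.05, as it did of all 12283 genes (0%). All 10 had an adjusted p = 0.994 in that edgeR test, and 0 of the 10 had an unadjusted p under 0.05, as against 127 of all genes (1.03%). DESeq2 without the block called 0 of the 10 and 14 of the genes with an adjusted p (0.114%), and limma-voom called 0 of the 10 and 0 of all genes (0%). The groups overlapped in all 10 genes; they were apart in 2.37% of all genes with CDs higher and in 2.33% with CDs lower. The spread between numbers counts as noise in that fit, and the common coefficient of variation was 0.485 without the block and 0.112 with it. With the block, edgeR called 0 of the 10 at an adjusted p under 0.05 (5 of all genes, 0.0407%). At an adjusted p under 0.10 it called Jak3, Tyk2 and Stat3, 3 of the 10 genes and all higher in CDs, where 8.3% of all genes were called, 5.17% higher and 3.13% lower. At an unadjusted p under 0.05 it called these and Jak1, 4 of the 10 and all higher, where 29.9% of all genes were called, 18% higher and 11.9% lower. DESeq2 with the block called Jak3 and Tyk2 at an adjusted p under 0.05, both higher, where 11.1% of the genes with an adjusted p were called, 8.71% higher and 2.35% lower.

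**Figure D2:**
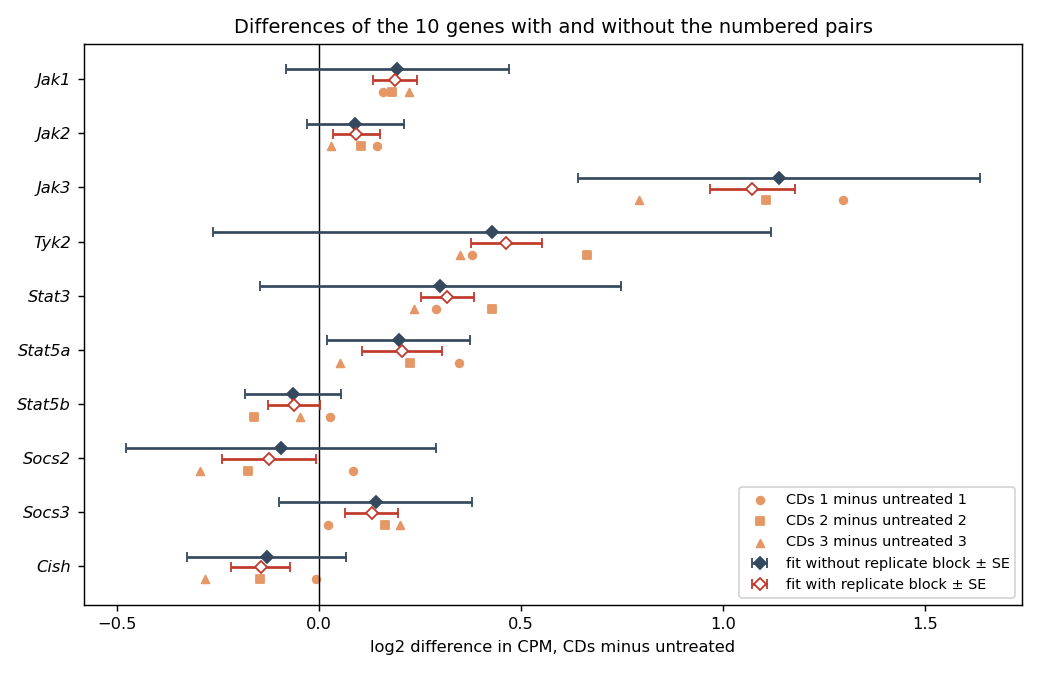
Log2 difference in CPM, CDs minus untreated (horizontal axis), for each gene, from the edgeR fit without the block (dark diamonds, ± SE), with the block (open red diamonds, ± SE) and within each same-numbered pair (orange, shape by number). Jak3 stands farthest from 0, at 1.07 ± 0.10 with the block, and Stat5b, Socs2 and Cish lie on the lower side.

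Jak3, the kinase that works with the common gamma chain of the interleukin receptors and is best known from lymphoid cells, showed the largest difference of the 10 genes. It measured 53.5, 40.95 and 18.38 FPKM in CDs 1 to 3 and 21.38, 18.79 and 10.37 FPKM in untreated 1 to 3. CDs 1 and CDs 2 lay above all untreated libraries, whereas CDs 3 lay below untreated 1 and untreated 2, so that the groups overlapped. In each group the library numbered 3 was the lowest.

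By CPM, Jak3 was higher in the CDs library of 3 of 3 pairs, 2.46-fold in pair 1, 2.15-fold in pair 2 and 1.73-fold in pair 3. Of all genes, 30.2% were higher in 3 of 3 pairs, and 100 of the 12283 (0.814%) had a smallest pair difference above the 0.79 (log2) of Jak3. The log2 fold change was 1.14 ± 0.50 (SE) without the block and 1.07 ± 0.10 with it. The fit with the block gave a 95% interval of 0.81 to 1.33 and an edgeR adjusted p = 0.0916. DESeq2 with the block gave 1.05 ± 0.15 with an adjusted p = 3.68e-10. Over all alternatives tried, the adjusted p of Jak3 ran from 3.68e-10 to 1.00 and its log2 fold change from 0.73 to 1.48, above 0 in each.

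Some marker lists of other cell types had a higher mean share of the counts in CDs, the direction of Jak3. Macrophage markers were higher in the CDs library of 3 of 3 pairs, like Jak3. Between numbers they were highest in the libraries numbered 3, where Jak3 was lowest. With a covariate for the macrophage marker score and no block, Jak3 measured 1.47 ± 0.16 (edgeR adjusted p = 0.00291). With that covariate and the block together, a fit with 1 residual degree of freedom, it measured 0.73 ± 0.23 (edgeR adjusted p = 0.153). Hepatocyte markers were also higher in the CDs library of 3 of 3 pairs and highest in the libraries numbered 3, with 0.0351%, 0.0358% and 0.0725% of the counts in CDs 1 to 3 and 0.0288%, 0.0227% and 0.0532% in untreated 1 to 3. Megakaryocyte markers held 0.0164%, 0.0165% and 0.0124% in CDs 1 to 3 and 0.0111%, 0.0121% and 0.0128% in untreated 1 to 3, higher in CDs in 2 of 3 pairs and, as for Jak3, lowest of the CDs libraries in CDs 3. The share of endothelial markers was 0.0482%, 0.0419% and 0.0351% in CDs 1 to 3 and 0.0160%, 0.0154% and 0.0204% in untreated 1 to 3 (exact two-sided permutation p = 0.1, the smallest possible). The groups were apart, and CDs 1 was the highest, as for Jak3. By the same permutation test p was 0.6 for macrophage, 0.5 for hepatocyte and 0.2 for megakaryocyte markers, whose groups overlapped. Of the 10 endothelial markers Lyve1 and Emcn stayed under 10 counts in every library. The part of macrophage, endothelial, hepatocyte or megakaryocyte RNA in the Jak3 difference was not tested. Of the 11 lymphoid markers in the table, 6 stayed under 10 counts in every library. The list held 0.00633% to 0.00861% of the counts in CDs and 0.00619% to 0.00798% in untreated libraries (exact two-sided permutation p = 0.6). It was higher in the CDs library of 3 of 3 pairs, as were granulocyte and monocyte markers (exact two-sided permutation p = 0.7). The part of either in the Jak3 difference was not tested.

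Jak3 (Entrez 16453, GRCm38.p6, chr8:71676383-71690577) shares its last part with Insl3, a gene of the insulin family, and 355 of the 3970 50-base windows of its longest coding transcript (8.94%) also occur in Insl3 transcripts. Insl3 held 9, 18.3 and 17.9 expected counts in CDs 1 to 3 and 0, 0 and 5.36 in untreated 1 to 3, against 2629, 2276 and 1015 for Jak3 in CDs and 1184, 1039 and 578 in untreated libraries. With the counts of both genes summed, Jak3 and Insl3 together had a log2 fold change of 1.08 ± 0.10 with the block (edgeR adjusted p = 0.0913). Il2rg, the gene of the common gamma chain, was looked up after its values were seen and did not share the pattern between numbers. It measured 15.2, 50.2 and 166 CPM in CDs 1 to 3 and 10.1, 18.7 and 139 CPM in untreated 1 to 3, highest in the libraries numbered 3, with a log2 fold change of 0.74 ± 0.26 with the block (edgeR adjusted p = 0.154).

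The makeup of the Janus kinase transcripts differed between the libraries. Jak3 made up 52.0%, 42.5% and 18.2% of the summed FPKM of the 4 kinase genes in CDs 1 to 3 and 32.7%, 28.3% and 12.6% in untreated 1 to 3. Jak2, the erythropoietin receptor's kinase, made up 22.3%, 24.7% and 26.8% in CDs and 32.2%, 32.5% and 32.2% in untreated libraries. Jak1 made up 21.3%, 25.3% and 37.8% in CDs and 29.7%, 32.4% and 38.9% in untreated libraries. Tyk2 made up 4.4%, 7.54% and 17.3% in CDs and 5.41%, 6.78% and 16.3% in untreated libraries, largest in those numbered 3. The summed FPKM was 103, 96.4 and 101 in CDs and 65.4, 66.4 and 82.1 in untreated libraries. These shares are a description of genes chosen with earlier results known, and no test was made of them.

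**Figure D3:**
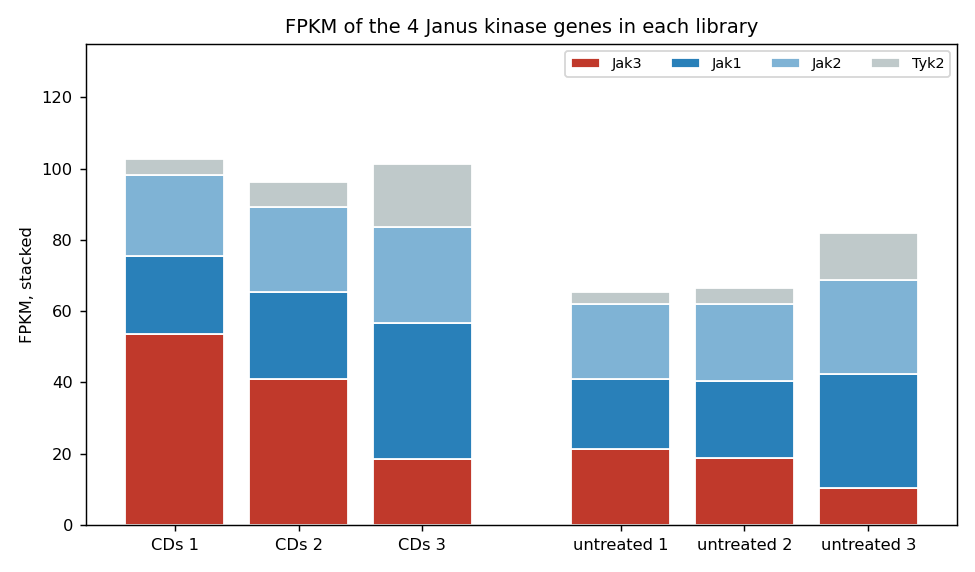
FPKM of Jak3, Jak1, Jak2 and Tyk2 stacked for each library (vertical axis, from 0), CDs libraries at the left and untreated ones at the right. The stacks of the 3 CDs libraries reach 96.4 to 103 and those of the untreated libraries 65.4 to 82.1. The FPKM of Jak3, as of the other kinase genes, is larger in the CDs library of each number.

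Jak2 itself (Entrez 16452, chr19:29251803-29313095) differed little between libraries. It measured 22.89, 23.8 and 27.12 FPKM in CDs 1 to 3 and 21.07, 21.57 and 26.4 FPKM in untreated 1 to 3. CDs 3 and untreated 3 were the highest of their groups, and the groups overlapped. Its log2 fold change was 0.09 ± 0.12 without the block and 0.09 ± 0.06 with it, with a 95% interval of -0.05 to 0.24, and 3 of 3 pairs had the CDs library higher by 0.03 to 0.14 (log2 CPM).

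Jak1 and Tyk2, the kinases of interferon and interleukin-6 type receptors, were higher in CDs in each pair and varied more between numbers. Tyk2 (Entrez 54721, chr9:21104068-21131393) measured 4.52, 7.27 and 17.47 FPKM in CDs 1 to 3 and 3.54, 4.5 and 13.41 FPKM in untreated 1 to 3. The libraries numbered 3 were the highest of both groups, and untreated 3 exceeded CDs 1 and CDs 2. For Tyk2 the log2 fold change was 0.43 ± 0.69 without the block and 0.46 ± 0.09 with it (edgeR adjusted p = 0.0916). DESeq2 with the block gave an adjusted p = 0.0254, and the alternatives ran from 0.0254 to 1.00.

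Jak1 (Entrez 16451, chr4:101151974-101265282) measured 21.91, 24.36 and 38.22 FPKM in CDs 1 to 3 and 19.45, 21.55 and 31.9 FPKM in untreated 1 to 3. Its log2 fold change was 0.19 ± 0.28 without the block and 0.19 ± 0.06 with it (edgeR adjusted p = 0.111). RefSeq places Raver2 and 3 further genes across parts of the Jak1 locus, and strand-specific preparation is not mentioned in the protocol.

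Stat3, which carries signals of interleukin-6 type cytokines and of the granulocyte colony-stimulating factor receptor, followed the same order of libraries as Tyk2. It measured 13.83, 17.66 and 32.4 FPKM in CDs 1 to 3 and 11.12, 13.01 and 26.82 FPKM in untreated 1 to 3. Each CDs library was higher than its same-numbered partner, by 0.29, 0.43 and 0.24 (log2 CPM), while untreated 3 lay above CDs 1 and CDs 2. For Stat3 the log2 fold change was 0.30 ± 0.45 without the block and 0.32 ± 0.07 with it (edgeR adjusted p = 0.0916, and 0.0574 in DESeq2 with the block).

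The level of Tyk2, Stat3 and Jak1 moved with that of macrophage markers across the libraries. The macrophage marker score (mean log2 CPM) was 3.63, 5.42 and 7.45 in CDs 1 to 3 and 2.34, 3.67 and 6.93 in untreated 1 to 3. It ranked the libraries in the same order as the first principal component, which held 88.7% of the variance. A covariate for this score therefore also takes up that component, and the part of macrophage RNA in these genes was not tested. With a covariate for the macrophage marker score and no block, the log2 fold changes were -0.052 for Tyk2, -0.013 for Stat3 and -0.0059 for Jak1. With that covariate and the block together they were 0.20 ± 0.22 for Tyk2, 0.14 ± 0.22 for Stat3 and 0.24 ± 0.22 for Jak1, in the fit with 1 residual degree of freedom. Of the 20 macrophage markers 17 passed the low-count filter, 16 of them above 0, and Adgre1, a defining surface antigen, measured 9.89, 39.8 and 156 FPKM in CDs 1 to 3 and 2.9, 9.39 and 106 FPKM in untreated 1 to 3. Timd4, Vsig4 and Cd163 stayed under 10 counts in every library. Without CDs 3, in a fit without the block that keeps untreated 3, the values of Tyk2 (-0.25), Stat3 (-0.095) and Jak1 (-0.056) lay below 0. Without both libraries numbered 3 they lay above it, at 0.53 for Tyk2, 0.35 for Stat3 and 0.15 for Jak1.

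**Figure D4:**
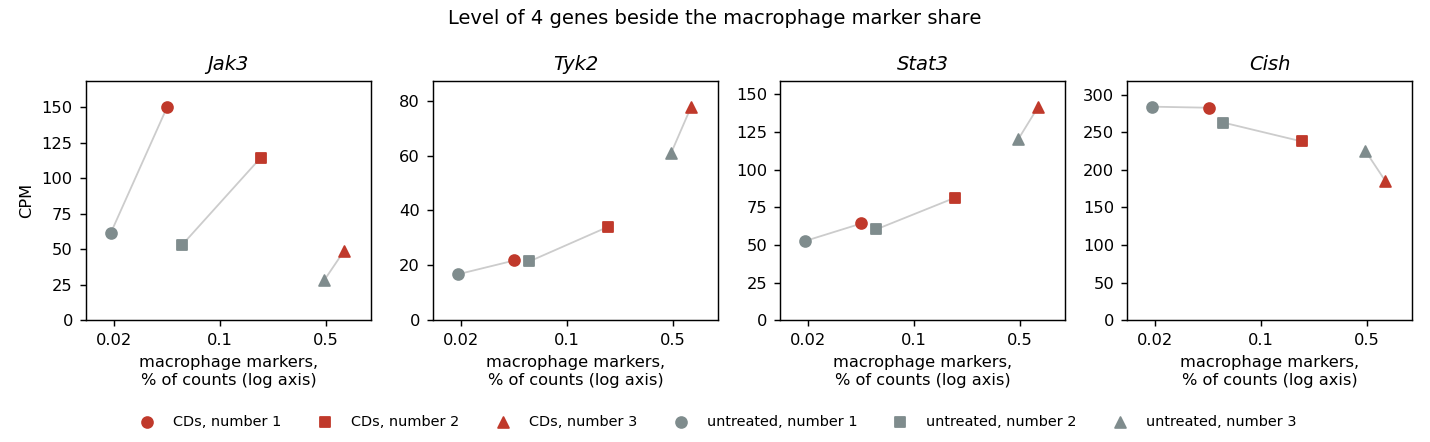
CPM of Jak3, Tyk2, Stat3 and Cish (vertical axes, from 0) against the share of counts held by the 20 macrophage markers (horizontal log axes, %), CDs in red and untreated in grey, with shapes for the replicate number and lines between same-numbered libraries. Tyk2 and Stat3 are highest and Jak3 and Cish lowest in the libraries with the largest macrophage share, and in each pair Jak3, Tyk2 and Stat3 are higher in CDs.

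Stat5a and Stat5b, neighbouring genes on chromosome 11 that encode the STATs of erythropoietin signalling, showed no difference beyond the replicate spread. Stat5b (Entrez 20851, chr11:100780731-100859004) measured 12.81, 13.48 and 15.03 FPKM in CDs 1 to 3 and 12.17, 14.92 and 15.27 FPKM in untreated 1 to 3. The groups overlapped and the CDs library was higher in 1 of 3 pairs. Its log2 fold change was -0.06 ± 0.12 without the block and -0.06 ± 0.06 with it, with a 95% interval of -0.22 to 0.10. Stat5a (Entrez 20850, chr11:100859351-100885169) measured 4.38, 4.94 and 5.34 FPKM in CDs 1 to 3 and 3.35, 4.12 and 4.99 FPKM in untreated 1 to 3. It was higher in the CDs library of 3 of 3 pairs, by 0.35, 0.23 and 0.05 (log2 CPM). The groups overlapped, and untreated 3 lay above CDs 1. Stat5a had a log2 fold change of 0.20 ± 0.18 without the block and 0.21 ± 0.10 with it (edgeR adjusted p = 0.224).

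These genes are near-identical over parts of their coding sequence, so 50-base reads could be divided between them. Of the 50-base windows of the longest coding transcripts, 608 are shared, which is 15.8% of those of Stat5a and 11.8% of those of Stat5b. The following stretch of 89 bases lies in exon 14 of Stat5a (GRCm38, chr11:100879629-100879717, plus strand) and in exon 13 of Stat5b (chr11:100790847-100790935, minus strand) and is the longest identical coding run within a single exon of both, taken from GENCODE transcripts. It is shown because a read from it cannot be assigned to either gene; no base is capitalised since none differs.
Stat5a and Stat5b, identical: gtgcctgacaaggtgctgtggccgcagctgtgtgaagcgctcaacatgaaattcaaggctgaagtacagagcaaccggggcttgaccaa
A coding stretch of 60 bases near the start of both transcripts (Stat5a exon 3, chr11:100861345-100861404, and Stat5b exon 2, chr11:100808457-100808516) is shown for contrast, with the 12 bases that differ in capitals.
Stat5a: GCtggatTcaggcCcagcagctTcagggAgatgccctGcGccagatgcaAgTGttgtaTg
Stat5b: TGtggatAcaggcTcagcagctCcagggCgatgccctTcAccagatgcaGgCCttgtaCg

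With the expected counts of Stat5a and Stat5b summed, which no division of shared reads can change, the log2 fold change was -0.01 ± 0.13 without the block and -0.01 ± 0.06 with it (edgeR adjusted p = 0.928). Their summed FPKM was 17.2, 18.4 and 20.4 in CDs 1 to 3 and 15.5, 19.0 and 20.3 in untreated 1 to 3. Of the summed FPKM of the 3 STAT genes, Stat3 made up 44.6%, 48.9% and 61.4% in CDs and 41.7%, 40.6% and 57.0% in untreated libraries.

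The 3 feedback inhibitor genes, whose transcription STAT proteins drive, were not called in any fit tried and did not share a direction. Cish (Entrez 12700, chr9:107296659-107302784), a direct STAT5 target that binds cytokine receptors through its SH2 domain, measured 91.74, 77.51 and 63.79 FPKM in CDs 1 to 3 and 90.64, 84.91 and 75.84 FPKM in untreated 1 to 3. CDs 3 was the lowest library and CDs 1 the highest, and the groups overlapped. By CPM the CDs library was lower in 3 of 3 pairs, with differences of -0.0071, -0.14 and -0.28 (log2), as were 26.2% of all genes. Cish had a log2 fold change of -0.13 ± 0.20 without the block and -0.14 ± 0.07 with it (edgeR adjusted p = 0.237), with a 95% interval of -0.32 to 0.03.

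Socs2 (Entrez 216233, chr10:95383903-95417321), best known as the inhibitor of growth hormone signalling, measured 7.13, 6.06 and 3.29 FPKM in CDs 1 to 3 and 6.86, 6.68 and 3.93 FPKM in untreated 1 to 3. The libraries numbered 3 were the lowest of both groups, and the CDs library was higher in 1 of 3 pairs. Socs2 had a log2 fold change of -0.09 ± 0.38 without the block and -0.12 ± 0.12 with it (edgeR adjusted p = 0.507). Pseudogenes share 18.4% of the 50-base windows of its longest coding transcript, so part of its reads could have been assigned elsewhere.

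Socs3 (Entrez 12702, chr11:117966079-117970336), which blocks Janus kinases directly and is also induced by STAT3, ran the other way between numbers. It measured 17.74, 21.31 and 30.6 FPKM in CDs 1 to 3 and 17.19, 18.86 and 26.0 FPKM in untreated 1 to 3. The libraries numbered 3 were the highest of both groups, and the CDs library was higher in 3 of 3 pairs, by 0.02, 0.16 and 0.20 (log2 CPM). Socs3 had a log2 fold change of 0.14 ± 0.24 without the block and 0.13 ± 0.06 with it (edgeR adjusted p = 0.234). Without CDs 3, in a fit without the block that keeps untreated 3, Socs3 was at -0.075, Socs2 at 0.18 and Cish at 0.016, each opposite in sign to its value over all 6 libraries. Socs2 was also above 0 without untreated 1 (0.031) and without untreated 2 (0.024). Without both libraries numbered 3 the signs were those over all 6 libraries, with Socs3 at 0.078, Socs2 at -0.061 and Cish at -0.094.

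STAT5 and STAT3 bind the palindrome TTCNNNGAA, which reads the same on both strands. It was searched in a table of RefSeq promoter windows (GRCm38.p6), each from 250 bases before to 50 bases after a listed start, and 9 of the 10 genes had a window in it. The listed starts need not be the outer end of a gene, and those of Socs3, Stat5a and Stat5b, among others, lie within the gene's RefSeq span given above. The motif lay in windows of Cish and Socs3, 2 of the 9 genes, against 9.55% of the 27025 genes with a window. Some genes have more than 1 window, and of all 32851 windows 8.30% held the motif. Cish had 2 copies, and 150 of all windows (0.457%) had at least 2. The sites are shown because both genes are known STAT targets, with the fixed letters in capitals and 30 bases each.
Cish, chr9:107296654-107296683, plus strand: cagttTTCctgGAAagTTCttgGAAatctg
Socs3, chr11:117969501-117969530, minus strand: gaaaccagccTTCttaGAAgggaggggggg
The first Cish copy begins at position 1 from the listed start, in a part that GENCODE annotates as untranslated exon, and the Socs3 copy begins at position -154 from its listed start, within the gene's RefSeq span, and overlaps no GENCODE exon of that gene. A match is a description of letters and shows no binding.

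The genes with the most similar pattern over the 6 libraries were found by the RMS difference of log2 CPM profiles, each centred on its own mean, among 9283 candidate genes. For Cish these were Zfp335, Psmb5 and Aggf1, with RMS differences of 0.0235, 0.0247 and 0.0282. For Socs2 they were Cpox, an enzyme of heme synthesis (0.0170), Nup133 (0.0250) and Pif1 (0.0272), and for Socs3 they were Cdc42se1 (0.0287), Tpra1 (0.0300) and Psd4 (0.0309). Jak3 was added to this comparison after its values were seen. Its nearest genes lay farther away, with Fads2, a fatty acid desaturase, at 0.0816, Hsd17b7, an enzyme of cholesterol synthesis, at 0.120 and Socs5, another member of the SOCS family, at 0.131.

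Around the 10 genes, no gene of the wider pathway passed an adjusted p of 0.05 in edgeR, with or without the block. Cytokine receptor genes lay mostly above 0, at 21 of 23 tested of 24 listed, with a median log2 fold change of 0.47 without the block and 0.69 with it. Over all genes tested the medians were 0.01 and 0.01, and 6372 of 12283 genes lay above 0. With the block, 5 receptor genes were higher and 0 lower at an edgeR adjusted p under 0.10, against 5.17% and 3.13% of all genes. DESeq2 with the block called 12 of them higher and 0 lower at an adjusted p under 0.05, against 8.71% and 2.35%. Marker genes of other cell types lay above 0 as well, 16 of 17 tested macrophage markers (median 0.78 without the block and 1.25 with it) and 6 of 7 endothelial ones (0.77 and 0.89), and their part in the receptor values was not tested. Csf3r, the granulocyte colony-stimulating factor receptor, measured 116, 78.9 and 36.4 CPM in CDs 1 to 3 and 15.6, 11.7 and 10.02 CPM in untreated 1 to 3, with the groups apart. Il6ra, the interleukin-6 receptor, measured 21.1, 18.1 and 11.5 CPM in CDs and 9.51, 7.98 and 7.13 CPM in untreated libraries, also apart, as were 2.37% of all genes with CDs higher. As for Jak3, CDs 1 was the highest and CDs 3 the lowest CDs library in both genes. Granulocyte and monocyte markers, cells that also carry both receptors, ran the other way between numbers, with 0.0408%, 0.143% and 0.285% of the counts in CDs 1 to 3 and 0.0280%, 0.0891% and 0.275% in untreated 1 to 3; their part in these differences was not tested.

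Il11ra1, the interleukin-11 receptor, had a log2 fold change of 0.34 ± 0.31 without the block. Epor, the erythropoietin receptor gene, measured 280, 235 and 132 CPM in CDs 1 to 3 and 300, 268 and 163 CPM in untreated 1 to 3. It was lower in the CDs library of 3 of 3 pairs, with a log2 fold change of -0.17 ± 0.36 without the block and -0.20 ± 0.07 with it (edgeR adjusted p = 0.127).

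Other STAT and SOCS genes lay above 0 in 7 of 9 cases (median 0.21 without the block). Of these 9, 1 gene, Socs5, had an edgeR adjusted p under 0.10 with the block, as did 8.3% of all genes. DESeq2 with the block called 2 of the 9 higher and 0 lower at an adjusted p under 0.05, against 8.71% and 2.35%. They were Stat6 (DESeq2 adjusted p = 3.64e-05) and Socs5 (DESeq2 adjusted p = 0.0011). Socs5, an inhibitor linked to interleukin-4 and epidermal growth factor signalling, measured 44.9, 29.5 and 10.7 CPM in CDs 1 to 3 and 15.9, 14.1 and 7.67 CPM in untreated 1 to 3. Its log2 fold change was 1.17 ± 0.58 without the block and 1.04 ± 0.20 with it (edgeR adjusted p = 0.0916). Stat6, the STAT of interleukin-4 signalling, was highest in the libraries numbered 3, at 104 CPM in CDs 3 and 63.3 CPM in untreated 3. For Stat6 the log2 fold change was 0.95 ± 1.29 without the block and 1.30 ± 0.28 with it (edgeR adjusted p = 0.101). Socs6 had 0.32 ± 0.28 without the block and 0.31 ± 0.09 with it (edgeR adjusted p = 0.112), and Socs4 had 0.12 ± 0.15 and 0.13 ± 0.10.

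Adaptors and positive transducers had 10 of 16 tested genes above 0, with a median of 0.10. DESeq2 with the block called 3 of the 16 higher and 0 lower at an adjusted p under 0.05, against 8.71% and 2.35%. Pik3ca and Pik3r1, the catalytic and regulatory subunits of PI3-kinase, had log2 fold changes of 0.24 ± 0.14 and 0.30 ± 0.20 without the block. The adaptor genes Stam2 (0.30 ± 0.33) and Crkl (0.08 ± 0.09) were the next by unadjusted p. Genes that restrain the pathway had 12 of 20 above 0, with a median of 0.11, and 2 had an edgeR adjusted p under 0.10 with the block, both higher, where 8.3% of all genes were called. Cbl, a ubiquitin ligase of activated receptors, was among them at 0.48 ± 0.06 with the block and 0.49 ± 0.51 without it. Of these 20 genes, DESeq2 with the block called 4 higher and 0 lower at an adjusted p under 0.05, against 8.71% and 2.35%. Asb6 (-0.24 ± 0.12 without the block), an adaptor of ubiquitin ligases, and Ptpn2 (-0.12 ± 0.10), a phosphatase of Janus kinases and STATs, were lower in all CDs libraries than in all untreated ones, as were 2.33% of all genes. Elob, a partner of the SOCS box, had -0.15 ± 0.14.

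Known STAT5 and STAT3 target genes other than the feedback inhibitors lay on both sides of 0, with 15 of 24 above it and a median of 0.06 without the block. With the block 2 were higher and 1 lower at an edgeR adjusted p under 0.10, against 5.17% and 3.13% of all genes. DESeq2 with the block called 5 of the 24 higher and 1 lower at an adjusted p under 0.05, against 8.71% and 2.35%. Ccnd1, the G1 cyclin D1, measured 144, 98.8 and 46.0 CPM in CDs 1 to 3 and 17.1, 15.8 and 17.6 CPM in untreated 1 to 3. Its groups were apart, as in 2.37% of all genes with CDs higher, and its log2 fold change was 2.38 ± 0.37 with the block. Junb had 0.39 ± 0.38 without the block and 0.39 ± 0.08 with it, Gfi1b, a repressor needed in erythroid cells, -0.29 ± 0.21 and -0.30 ± 0.06, and Ccnd2 0.20 ± 0.14 and 0.21 ± 0.07.

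**Figure D5:**
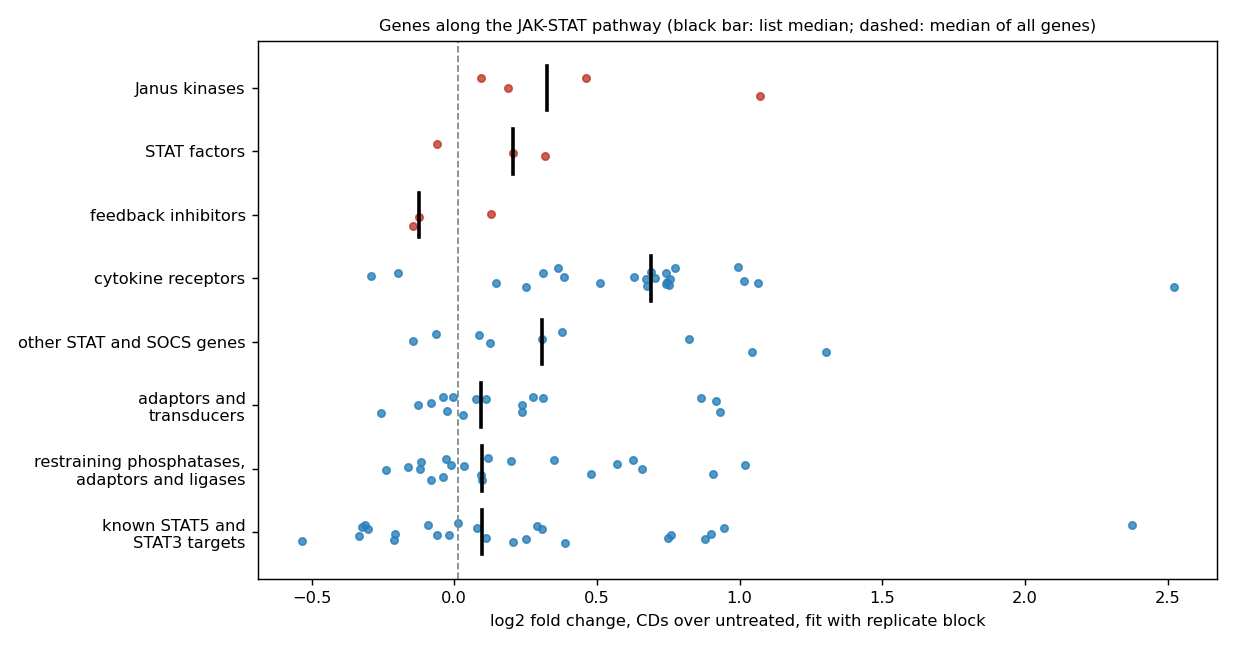
Log2 fold change of CDs over untreated from the edgeR fit with the block (horizontal axis) for each tested gene of the 8 lists, the 10 genes of the report in red and the wider pathway in blue. Black bars mark list medians, from -0.12 for the feedback inhibitors to 0.69 for the cytokine receptors, and the dashed line marks the median of all genes at 0.01.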

How the data were processed

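Polyadenylated RNA of 6 libraries was read from a single end over 50 bases, per the labels' protocols, which name no step that marks strand. Build GRCm38.p6 and the tools RSEM 1.2.12, Bowtie2 2.2.5, HISAT2 2.0.4 and DESeq2 1.4.5 appear, without roles, in the submitters' processing notes. The authors deposited expected counts per gene (30.1% of values not whole within 0.001), which were rounded for the tests. The deposited FPKM table, a unit worked out from its values, gave levels per length. Count and FPKM of the 10 genes deviated by an RMS of 0.000924 to 0.0271 (log2), against a median of 0.00573 over 9238 genes.

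The main test was edgeR 4.0.16 in R 4.3.3 (filterByExpr, TMM, robust quasi-likelihood test, Benjamini-Hochberg adjustment over 12283 genes holding 99.9% of the counts, threshold 0.05). Standard errors come from that fit. DESeq2 1.42.0, limma 3.58.1, other filters and scalings, a replicate block, a macrophage covariate and left-out libraries were alternatives. Summed counts of Jak3 with Insl3 and of Stat5a with Stat5b were added after seeing the data. So were the covariate with the block and the rank of Jak3 by smallest pair difference. Same-numbered libraries deviated together (correlations of 0.91, 0.34 and 0.94, above the limit of 0.1). The numbers were therefore taken to pair them, though no label says so. Libraries of unlike number were not compared, so these correlations cannot decide the pairing, on which every fit with the block rests. No library was a copy of another of its group (chi-square per degree of freedom of at least 11.5).

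Members and lists were chosen with earlier results of these data known, and lists got no test. Beyond the 10 members and Epor, the text names the 4 genes of smallest unadjusted p per pathway list with a mean of at least 1 CPM (a receptor gene among them is not reported here), and the 3 genes of most similar pattern for each feedback inhibitor. Il2rg and the 3 genes nearest to Jak3 were chosen after their values were seen. Gene positions come from RefSeq of the same build, matched by Entrez number for 17570 genes (99.3%).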

Additional observations from a re-analysis of the deposited data

How the results depend on the processing

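The count of genes past an adjusted p of 0.05 was 0 without the block in edgeR under TMM or DESeq2 size factors, with either other filter, in limma-voom, in limma on log2(FPKM + 1) or log2(FPKM + 0.1), and with any library or pair left out (lowest 0, highest 0). It was 14 in DESeq2 and 75 with a covariate for the macrophage marker score. With the replicate block it was 5 in edgeR, 7 in limma-voom, 1200 in DESeq2, 2 in limma on log2(FPKM + 1) and 86 with the covariate added. Of the 10 genes, DESeq2 with the block called 2 and edgeR with the covariate 1 (Jak3), and every other alternative called 0; the cause of these differences was not tested. The block moved no log2 fold change of the 10 genes across 0. Jak2, Jak3 and Stat5a kept their sign under all alternatives tried, with Stat5a at 0.0063 and Jak2 at 0.011 with covariate and block. With the covariate Jak1 (-0.0059), Tyk2 (-0.052), Stat3 (-0.013), Socs2 (0.16) and Socs3 (-0.038) turned, and with covariate and block Stat5b (0.028). With libraries left out, log2 fold changes ran from -0.056 to 0.42 for Jak1, -0.25 to 1.22 for Tyk2, -0.095 to 0.76 for Stat3, -0.35 to 0.18 for Socs2, -0.075 to 0.31 for Socs3 and -0.29 to 0.016 for Cish. For Jak3 they ran from 0.78 to 1.48, for Jak2 from 0.041 to 0.17, for Stat5a from 0.076 to 0.32 and for Stat5b from -0.14 to -0.018. With 3 libraries per group, the smallest exact permutation p is 0.1.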
